A study of Mus musculus with 8 samples.

Results

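The 10 genes described here run the decision of a fibroblast to leave G1 and copy its DNA: the D-type cyclins Ccnd1, Ccnd2 and Ccnd3, their kinase partners Cdk4 and Cdk6, the kinase inhibitors Cdkn2a and Cdkn2b, the retinoblastoma gene Rb1, its transcription factor partner E2f1, and Myc. They were chosen by name and role and found by matching the Ensembl identifiers of the deposited table to mouse symbols. All 10 are among the table's 39017 identifiers, and all 10 passed the expression filter that left 18952 genes for testing. As background, mitogens raise D-type cyclins, which activate Cdk4 and Cdk6; these kinases phosphorylate Rb1 and free E2F factors to switch on replication genes. Cdkn2b and the p16 product of Cdkn2a block the kinases, while the Arf product of Cdkn2a stabilises p53, and both loci are known to be switched on as embryonic fibroblasts adapt to culture. Myc drives growth and cell-cycle entry, and the short-lived mRNAs of Myc and of the D-type cyclins are regulated strongly through their stability.

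The cells were mouse embryonic fibroblasts from E13.5 embryos, grown in medium with 10% serum, and 4 groups of 2 biological replicates were sequenced as poly(A) RNA. Control total and Mettl3 knockout total libraries came from unstressed cells; control granule and Mettl3 knockout granule libraries came from cells that received 500 µM sodium arsenite for 30 min, after which stress granules, the cytoplasmic assemblies of stalled mRNA and protein, were enriched by centrifugation. Mettl3 encodes the methyltransferase that places m6A (N6-methyladenosine) in mRNA, and it was removed by a Cre recombinase activated with 500 nM 4-hydroxytamoxifen over 48 h, protein and modification loss was checked after 7 days, and cells were taken the day after that. The labels do not name the Cre driver, the number of embryos behind a replicate, or whether control cells were given the drug. Stress and fraction changed together, so a difference between granule and total libraries cannot be told apart from a response to arsenite.

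Libraries held 67257220 to 123508539 counts. Mettl3 itself lay at 24.9 to 25.4 CPM, its count scaled to the library total, in control total, 15.4 to 15.7 in control granule, 6.004 to 7.352 in knockout total and 5.56 to 6.38 in knockout granule libraries, so all 4 knockout libraries lay under all 4 control ones. All 9 fibroblast markers listed were tested, and their levels were uneven. Col1a1, Col1a2, Col3a1, Vim and Pdgfrb were at 56.9 CPM or more in every library. Pdgfra reached at most 3.47, Lum 5.22, Thy1 12.9 and Dcn 18.3 CPM. Summed levels of 5 blood and macrophage markers were 39.1 to 82.7 CPM, with Ptprc alone at 16.7 to 41.8 CPM. Those of 4 endothelial markers were 6.24 to 20.1 CPM. Those of 4 neural markers were 19.8 to 48.3 CPM, and those of 3 skeletal muscle markers, of which 1 passed the filter, at most 0.397 CPM. The defining epithelial marker Epcam reached at most 1.61 CPM. The summed level of 5 epithelial markers, largely Krt18 and Krt14, was lower in knockout total (141 to 159 CPM) than in control total libraries (330 to 425 CPM), and higher in control granule (725 to 854 CPM) and knockout granule libraries (580.1 to 767 CPM). The fibroblast sum was 4373 to 5530.3 CPM in control total, 5612 to 5825 in control granule, 3383 to 3740 in knockout total and 6836 to 7438 in knockout granule libraries. The part of these shifts in the comparisons of granule with total libraries was not tested. The knockout total replicates differed widely from each other. Over 10261 genes the median absolute log2 difference between them was 0.81, against 0.10 to 0.31 in the other groups. For the 10 cell-cycle genes it was 1.06, and 6 of them differed more than 2-fold there and none elsewhere. The share of all genes differing more than 2-fold was not computed. Across the 10 genes the value of replicate 1 less that of replicate 2 fell with the GC content of the transcript. Spearman rho was -0.842, a description over 10 genes of the same library pair. In the control total pair it ran the other way (rho 0.673). Over all genes compared, rho was -0.734 in the knockout total and 0.764 in the control total pair, so the trend was not particular to the 10. Mitochondrial transcripts took 7.60% of counts in knockout total replicate 1 and 0.807% in replicate 2.

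**Figure D1:**
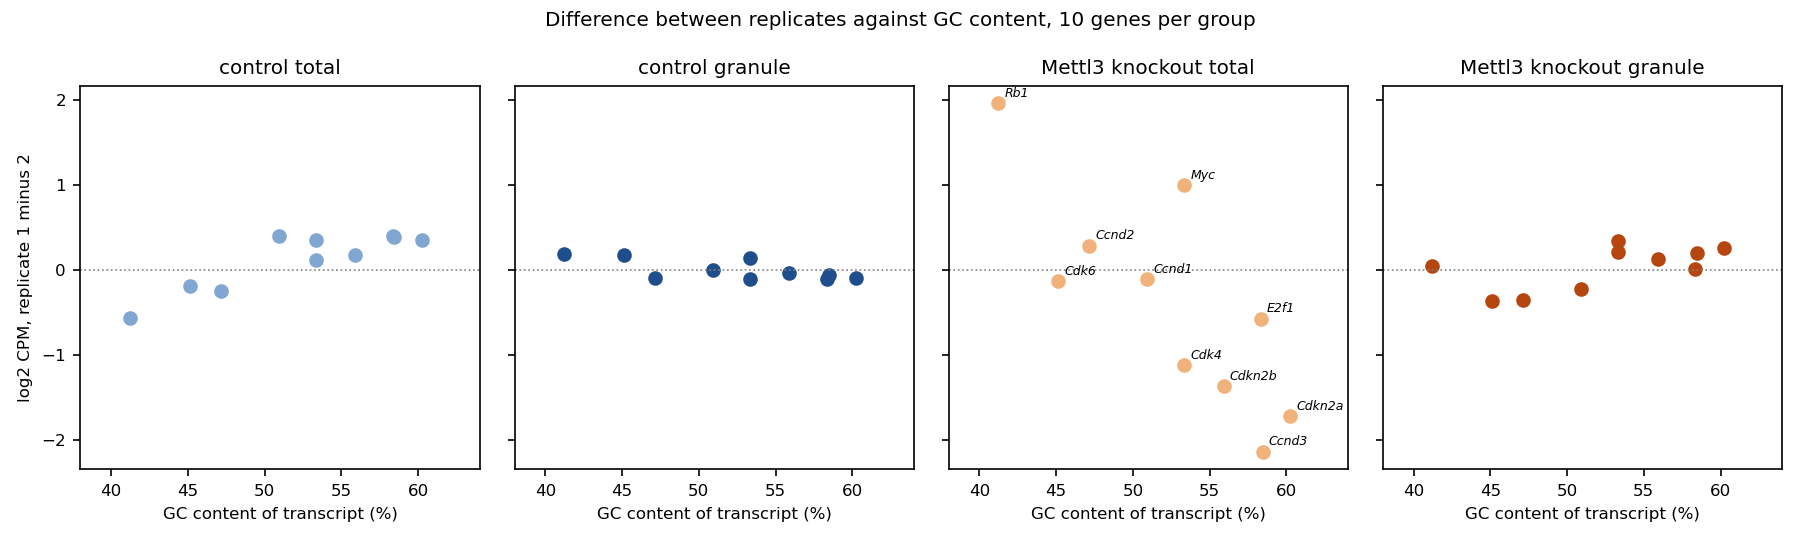
Difference in log2 CPM between replicate 1 and replicate 2 (vertical axis) against the GC content of the representative transcript (horizontal axis, percent) for the 10 genes in each of the 4 groups. In knockout total libraries the points run from Rb1 at 1.96 to Ccnd3 at -2.14, while in both granule groups they lie between -0.37 and 0.34.

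To compare genes, CPM was divided by the merged exon length in kilobases. Cdkn2a was the highest of the 10 on this scale in every group but knockout total, at 980.0 ± 168 CPM per kilobase (SD, n = 2, as for all group values below) in control total and 779.9 ± 96.9 in knockout granule libraries. Cdk4 followed in control total cells (344 ± 58.1), then Myc (133 ± 7.64), Cdkn2b (90.9 ± 7.77) and Ccnd2 (34.6 ± 4.16). E2f1 (33.0 ± 6.32) overlapped Ccnd2, and Ccnd3 (15.97 ± 2.998) overlapped Ccnd1 (16.5 ± 3.20). Cdk6 (1.42 ± 0.132) and Rb1 (1.18 ± 0.325) were lowest and overlapped each other. In knockout total libraries the spread was so wide that Cdkn2a, Myc and Cdk4 could not be ordered. The level of Ccnd3 depends on the length used, because its annotated exons add up to 8775 bases while its longest coding transcript has 2113. Per kilobase of that transcript it stood at 66.3 in control total libraries, above Ccnd2 at 51.5 and Ccnd1 at 20.8.

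**Figure D2:**
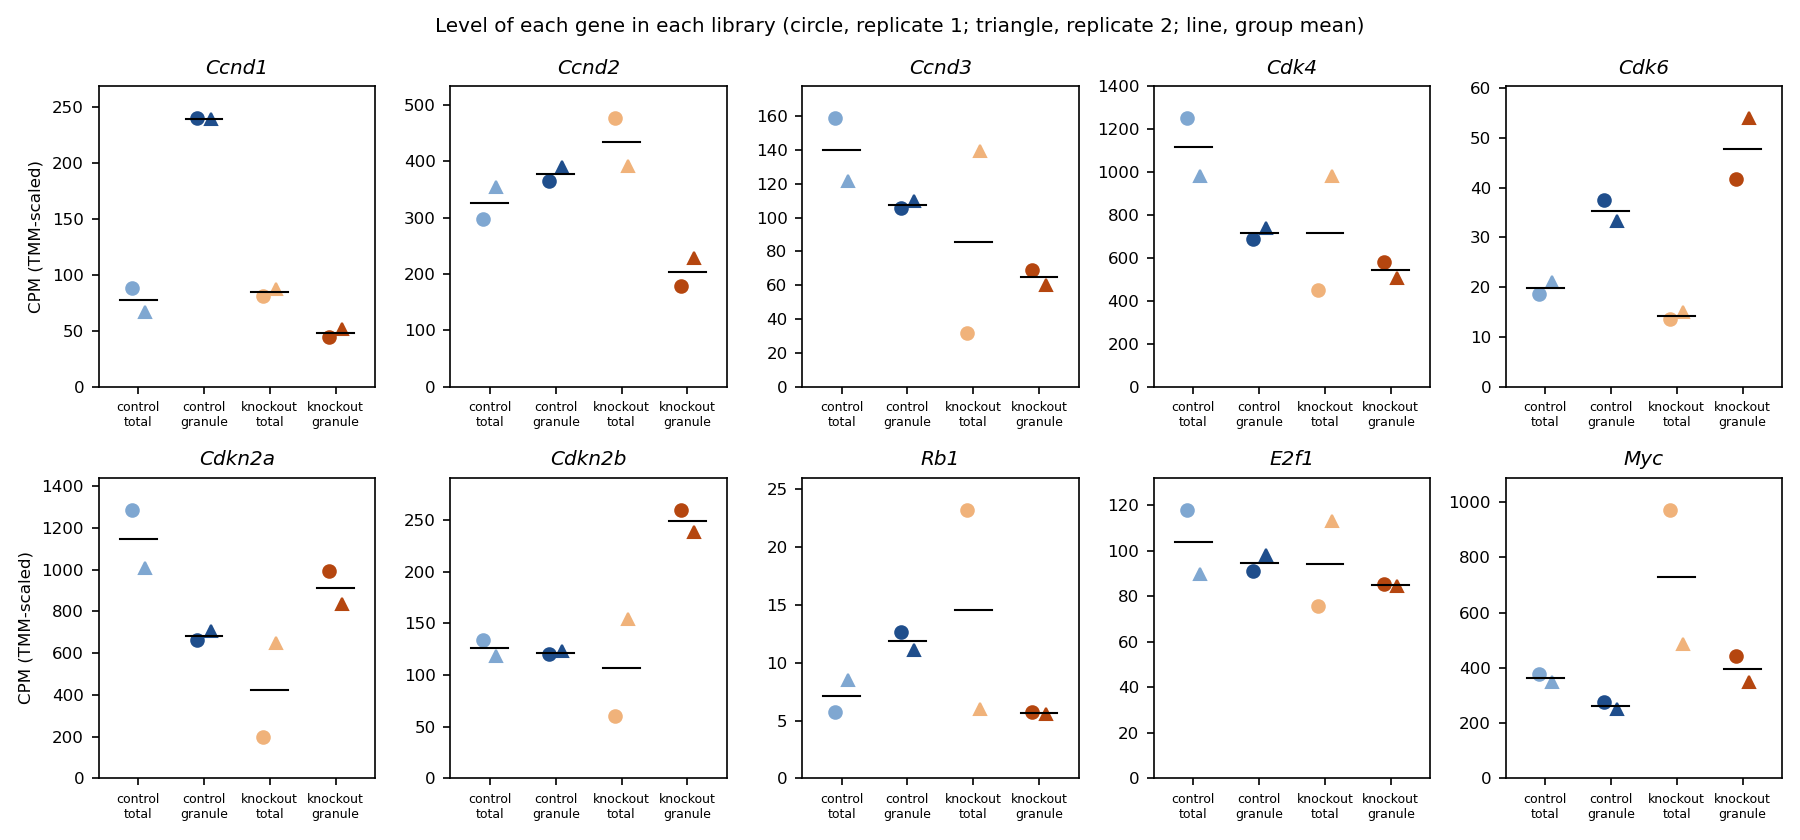
CPM of each gene (vertical axes, each starting at 0) in the 8 libraries, by group; circles are replicate 1, triangles replicate 2, and lines group means. Ccnd1 stands out in control granule libraries at 239.9 and 239.4 CPM, and Ccnd3, Cdk4, Cdkn2a, Cdkn2b, Rb1 and Myc show the split between the knockout total replicates.

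Few of the 10 genes changed beyond the spread shared by the groups. Called means an adjusted p under 0.05 over all genes tested. In control cells 1 gene, Ccnd1, was called between granule and total libraries, against 10.1% of all genes tested. In knockout cells Ccnd2 and Cdk6 were called, against 17.6% of all genes. Between genotypes in total RNA, edgeR called no member, against 0.412% of all genes. At an unadjusted p under 0.05 there were 2 members, against 24.8% of all genes, and DESeq2 called 2, against 12.9%, so both counts are near the background. In the granule fraction Ccnd1 was called, against 9.45%, and Ccnd1 was also the only member called for the difference between genotypes in the granule to total ratio, against 0.517%. Libraries of the groups did not overlap for 8 members in control cells (72.4% of all genes), 7 in knockout cells (58.0%), 5 between genotypes in total RNA (49.1%) and 10 between genotypes in granules (77.0%). The median log2 fold changes of the 10 genes in these 4 comparisons were -0.10, -0.40, -0.19 and -0.27, and those of all genes tested -0.06, 0.04, 0.02 and 0.08. The replicate spread is estimated over all 4 groups, so calls in granules rest in part on the uneven total libraries. Without knockout total replicate 1, 6 members were called in control cells (40.6% of all genes) and 6 between genotypes in granules (39.0%). Without knockout total replicate 2 there were 5 (39.9%) and 6 (38.9%).

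**Figure D3:**
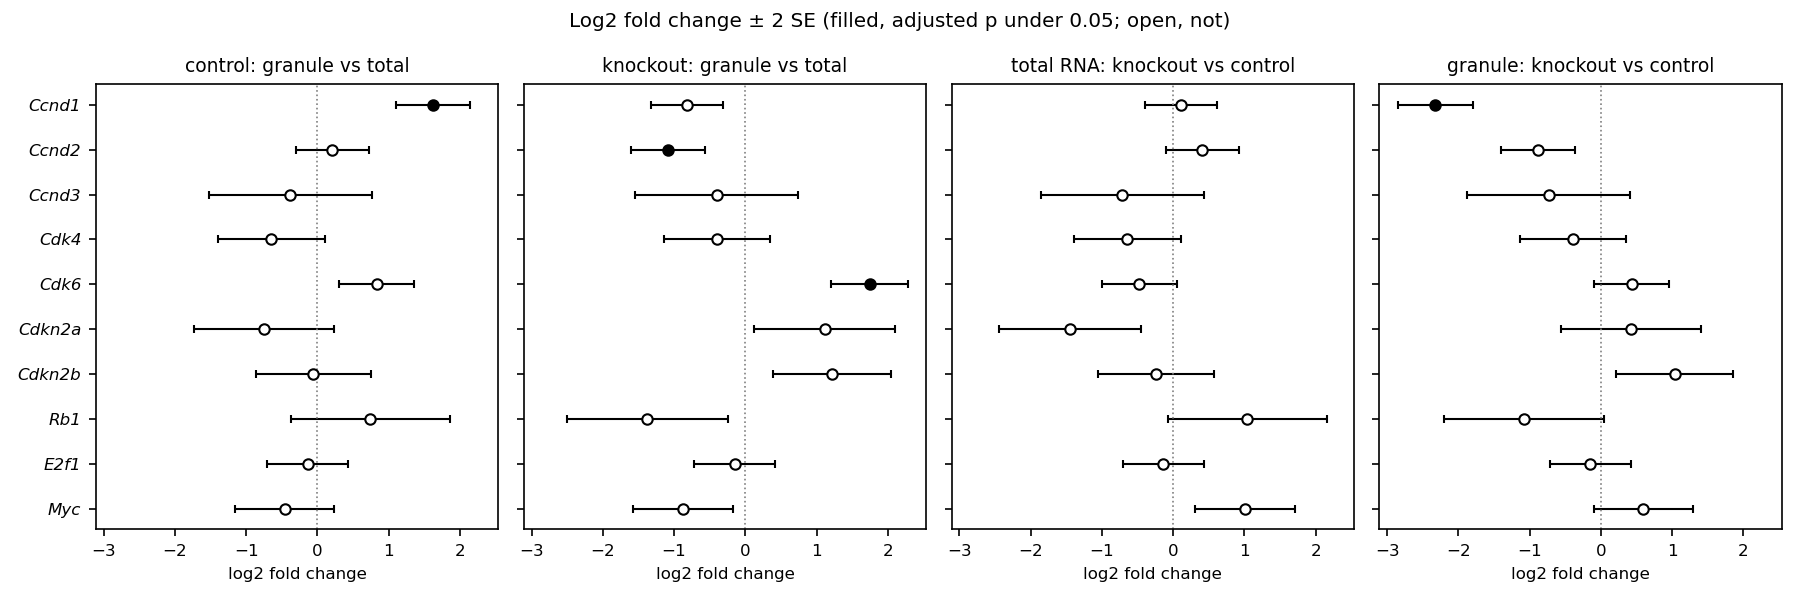
Log2 fold change (horizontal axis) of each gene in 4 comparisons, with bars of 2 SE from the model of all 8 libraries; filled points passed an adjusted p of 0.05. Filled points are Ccnd1 at 1.62 in control cells, Ccnd2 at -1.09 and Cdk6 at 1.75 in knockout cells, and Ccnd1 at -2.32 between genotypes in granules.

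Ccnd1, which encodes cyclin D1 (ENSMUSG00000070348, GRCm38 chromosome 7, 144929931 to 144939925, minus strand), gave the clearest pattern of the set. It stood at 88.5 and 67.2 CPM in control total, 239.9 and 239.4 in control granule, 81.1 and 87.7 in knockout total, and 44.1 and 51.7 in knockout granule libraries. The control granule libraries were the highest and the knockout granule libraries the lowest of all 8, with total libraries of both genotypes overlapping in between. Ccnd1 rose 3.08-fold from total to granule in control cells (log2 1.62, SE 0.26, adjusted p = 0.0133). In knockout cells its log2 change was -0.82 (SE 0.25, adjusted p = 0.0596). Between genotypes it fell 5.00-fold in granules (log2 -2.32, SE 0.26, adjusted p = 0.00541), while in total RNA the log2 difference was 0.12, with an interval of 2 SE from -0.39 to 0.62. In bulk RNA, fewer cells that hold a transcript and less transcript per cell cannot be told apart. The granule to total ratio was 5.42-fold lower in knockout than in control cells (log2 -2.44, SE 0.36, adjusted p = 0.0437). All 4 pairings of a granule with a total library were above 0 in control (1.43 to 1.84) and all 4 below 0 in knockout cells (-0.99 to -0.65). The pairings reuse the same libraries and restate that the groups did not overlap, as for 72.4% of all genes in control and 58.0% in knockout cells. Ccnd2 and Rb1 had the same signs.

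When 1 library was left out, the direction and approximate size of these 3 Ccnd1 differences stayed, while their calls depended on the library. The rise in control cells ranged from 1.48 to 1.84, with adjusted p from 0.0906 to 0.128 when a library of that comparison was missing. The fall between genotypes in granules ranged from -2.45 to -2.26 and lost its call without any granule library (the highest adjusted p was 0.109). The difference between ratios ranged from -2.66 to -2.38 and was called in 2 of 8 such fits, those without a knockout total library. Mitochondrial transcripts took 6.16% and 8.81% of counts in knockout granule against 0.590% and 0.678% in control granule libraries, and their part in these differences was not tested. Exons of a gene on the opposite strand, annotated as LTO1, cover 23.4% of the exonic bases of Ccnd1, and whether reads were counted by strand is not given in the sources used here.

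Because the knockout removes m6A, matches to GGACT, a form of the sequence that the m6A writer prefers, were searched on the sense strand of each gene's longest coding transcript. Ccnd1 had 3 in 3740 nt, shown with 10 bases on each side, the match in capitals and the position counted from the transcript's 5′ end.
Ccnd1 position 899, coding: agtgtgacccGGACTgcctccgtgc
Ccnd1 position 2594, 3′ UTR: gaaaattaggGGACTccaaaagagt
Ccnd1 position 2693, 3′ UTR: ctttctattaGGACTttttggcaga
That is 0.802 matches per kilobase, against a median of 1.06 over 15378 protein-coding genes tested, and 91.8% of these genes have at least 1 match. A match is a description and not a measured m6A site. The 3′ UTR of Ccnd1 also held 5 copies of ATTTA, the core of AU-rich decay elements; 20.9% of the protein-coding genes have 5 or more.

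Ccnd2, encoding cyclin D2 (ENSMUSG00000000184, chromosome 6, 127125162 to 127152193), fell from total to granule in knockout cells. It was at 298.2 and 354 CPM in control total, 364 and 389.8 in control granule, 476 and 391 in knockout total, and 179 and 228 in knockout granule libraries. The knockout granule libraries were the lowest of all 8 and the knockout total libraries the highest. From total to granule it fell 2.13-fold in knockout cells (log2 -1.09, SE 0.26, adjusted p = 0.0273), a call that was lost without any 1 of the 4 granule libraries or the control total libraries (highest adjusted p 0.201), and in a fit of only these groups (adjusted p = 0.154). The log2 change in control cells was 0.21 (interval of 2 SE -0.30 to 0.72), and the difference of the ratios between genotypes, -1.30, was not called (SE 0.37, adjusted p = 0.105). In granules the log2 difference between genotypes was -0.89 (SE 0.26, adjusted p = 0.0693).

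Ccnd3, encoding cyclin D3 (ENSMUSG00000034165, chromosome 17, 47505051 to 47599691), followed neither. Its levels were 159 and 122 CPM in control total, 105 and 109.9 in control granule, 31.6 and 139 in knockout total, and 69.2 and 60.4 in knockout granule libraries. The knockout total replicates lay on either side of all the granule libraries, and no comparison was called. From total to granule in knockout cells it was called in opposite directions depending on which knockout total library was left out: the log2 change was -1.11 without replicate 1 (adjusted p = 0.00106) and 0.91 without replicate 2 (adjusted p = 0.00461). In those fits 34.0% and 48.2% of all genes were called.

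Summed per kilobase, the D-type cyclins reached 102 and 105 CPM per kilobase in control granule libraries, 65.7 to 76.1 in the total libraries of both genotypes, and 36.3 and 42.1 in knockout granule libraries. Ccnd1 made up 50.1% and 48.5% of that sum in control granules, against 21.7% to 27.4% in the other 6 libraries. Per kilobase of the longest coding transcript the shares were 37.4% and 36.0% against 13.7% to 19.4%, so the control granule libraries again held the highest share of Ccnd1. Ccnd2 was the largest part by exon length in the other 6 libraries.

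**Figure D4:**
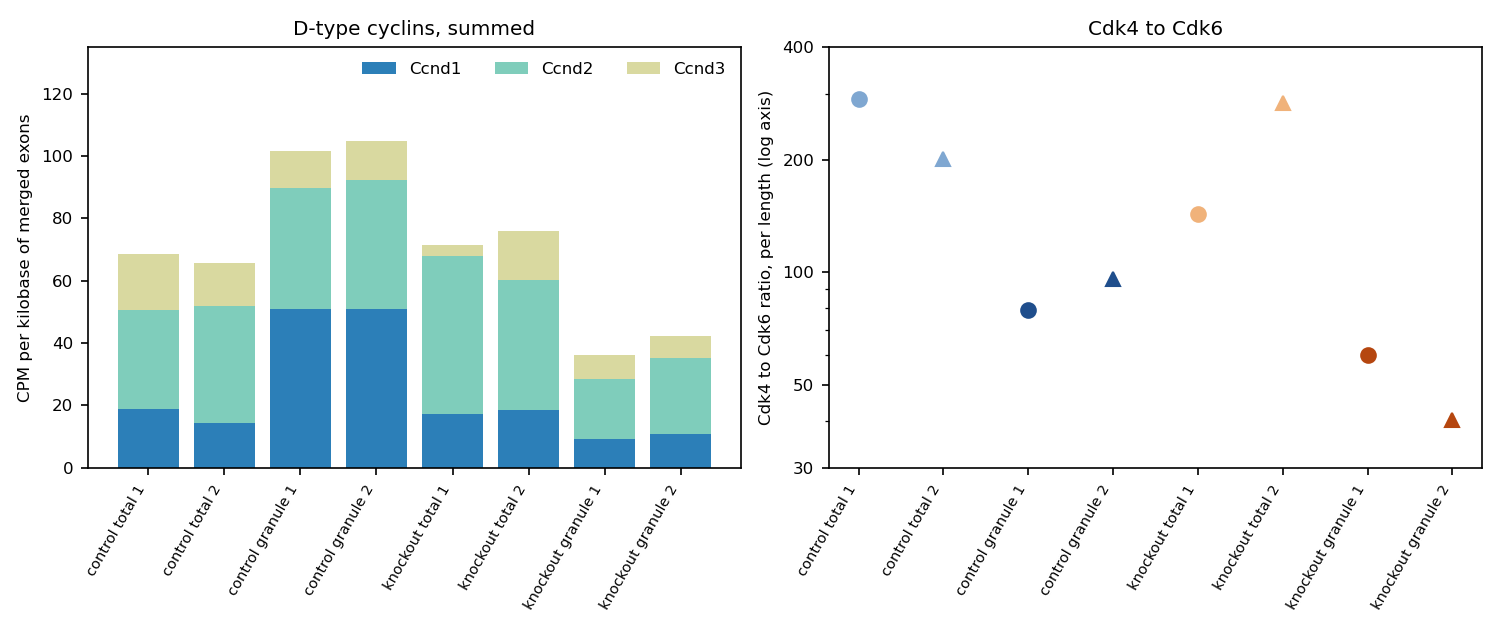
Left, stacked CPM per kilobase of merged exons of the 3 D-type cyclins in each library; right, ratio of Cdk4 to Cdk6 on the same per-length scale (log axis). The Ccnd1 segment is tallest in control granule libraries, and the Cdk4 to Cdk6 ratio is 40.3 to 95.7 in granule libraries and 143 to 290.4 in total libraries.

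The kinases behaved unlike each other. Cdk6 (ENSMUSG00000040274, chromosome 5, 3341485 to 3531008) stood at 18.5 and 21.2 CPM in control total, 37.5 and 33.3 in control granule, 13.6 and 14.9 in knockout total, and 41.7 and 54.0 in knockout granule libraries. All granule libraries were above all total libraries. In knockout cells Cdk6 rose 3.35-fold from total to granule (log2 1.75, SE 0.27, adjusted p = 0.00653), a call that was lost without either knockout granule library (highest adjusted p 0.0866, lowest log2 value 1.55) and when only these groups were fitted (adjusted p = 0.0884). In control cells the log2 change was 0.83 (SE 0.26, adjusted p = 0.0793). The difference of the ratios between genotypes, 0.91, was not called (adjusted p = 0.175, interval of 2 SE 0.17 to 1.65).

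Cdk4 (ENSMUSG00000006728, chromosome 10, 127063534 to 127067920) was at 1251 and 984 CPM in control total, 689 and 740.2 in control granule, 451 and 981 in knockout total, and 583 and 505 in knockout granule libraries. It was lower in control granule than in control total libraries without overlap, but at a log2 change of -0.65 (SE 0.37, adjusted p = 0.286) it was not called, nor was any other comparison of it. Exons of the opposite-strand gene Tspan31 cover 19.7% of its exonic bases. The Cdk4 to Cdk6 ratio per kilobase was 200.3 to 290.4 in control total and 143 and 283 in knockout total libraries, against 79.1 and 95.7 in control granule and 60.2 and 40.3 in knockout granule libraries, so total and granule libraries did not overlap in either genotype.

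Promoter sequences of 6 of the 10 genes were found in the RefSeq table for GRCm38.p6, each spanning 250 bases before to 50 bases after a transcription start. Both strands were searched for CACGTG, the E-box bound by Myc with Max, and TTTCCCGC, a form of the E2F site; these motifs do not overlap in letters. The Cdk4 promoter is shown because Cdk4 is a known Myc target measured here beside Myc; capitals mark CACGTG.
Cdk4 promoter, chr10:127063285-127063584, plus strand: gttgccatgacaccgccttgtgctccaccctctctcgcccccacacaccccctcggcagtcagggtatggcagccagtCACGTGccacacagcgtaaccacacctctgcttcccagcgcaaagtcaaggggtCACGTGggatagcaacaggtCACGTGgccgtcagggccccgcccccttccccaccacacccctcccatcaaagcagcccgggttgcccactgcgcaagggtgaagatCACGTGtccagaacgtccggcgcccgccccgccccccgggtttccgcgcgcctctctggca
It held 4 copies of CACGTG. Among 32851 promoters of this length, 7.15% hold at least 1 copy and 0.0883% hold 3 or more. The Cdk6 promoter held 1 copy, and those of Ccnd3, Cdkn2a and Cdkn2b held 0. The window listed for E2f1 (chr2:154569377-154569676, minus strand) also held 0. It lies inside the annotated gene, whose outer start is at 154569892, so the sequence before that start was not searched for either motif. Over the 8 libraries the Pearson correlation of Myc and Cdk4 log2 CPM was -0.386, a description. Knockout total replicate 1 had the highest Myc and the lowest Cdk4 value, so the sign may rest on that 1 library. The correlation without it was not computed, and whether Myc acts on Cdk4 in these cells was not tested.

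The inhibitors Cdkn2a (ENSMUSG00000044303, chromosome 4, 89274471 to 89294653) and Cdkn2b (ENSMUSG00000073802, chromosome 4, 89306299 to 89311039) lie 11646 bases apart on the same strand. Cdkn2a has 2 annotated transcripts with separate starts, for p16 and Arf, which share 575 of 1172 exonic bases, so its count cannot be split between these products. The 3 promoters of the locus are shown because each product has its own. Capitals mark TTTCCCGC, which occurs in 1.07% of the table's promoters and among these 3 only before the longer of the Cdkn2a transcripts.
Cdkn2a promoter at the distal start, chr4:89294570-89294869, minus strand: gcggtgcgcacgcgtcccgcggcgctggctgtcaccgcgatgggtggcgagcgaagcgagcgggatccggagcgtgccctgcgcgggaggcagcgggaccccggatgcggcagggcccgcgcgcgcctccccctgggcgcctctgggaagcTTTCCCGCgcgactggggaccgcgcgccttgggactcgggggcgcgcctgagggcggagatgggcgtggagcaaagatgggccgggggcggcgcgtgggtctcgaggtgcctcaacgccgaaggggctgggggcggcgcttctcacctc
Cdkn2a promoter at the proximal start, chr4:89282143-89282442, minus strand: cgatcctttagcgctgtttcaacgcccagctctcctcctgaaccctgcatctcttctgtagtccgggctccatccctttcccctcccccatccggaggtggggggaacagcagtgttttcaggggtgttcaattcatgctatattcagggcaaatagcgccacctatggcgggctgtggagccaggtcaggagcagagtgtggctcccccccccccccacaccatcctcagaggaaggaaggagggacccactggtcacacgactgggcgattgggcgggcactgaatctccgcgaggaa
Cdkn2b promoter, chr4:89310983-89311282, minus strand: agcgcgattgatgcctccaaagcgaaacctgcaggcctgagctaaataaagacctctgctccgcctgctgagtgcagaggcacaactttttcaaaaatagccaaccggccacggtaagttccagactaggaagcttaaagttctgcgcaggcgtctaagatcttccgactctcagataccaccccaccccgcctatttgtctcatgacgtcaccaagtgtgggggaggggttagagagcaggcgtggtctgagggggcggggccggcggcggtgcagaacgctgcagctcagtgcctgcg

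Cdkn2a stood at 1288 and 1009.6 CPM in control total, 662 and 706 in control granule, 197 and 649 in knockout total, and 994 and 834 in knockout granule libraries. Within control cells the granule libraries were the lower, and within knockout cells they were the higher, without overlap in either genotype. The log2 change from total to granule was -0.75 in control (SE 0.49, adjusted p = 0.343) and 1.11 in knockout cells (SE 0.50, adjusted p = 0.155). The difference between these, 1.86, was not called (SE 0.70, adjusted p = 0.155, interval of 2 SE 0.47 to 3.26). In total RNA Cdkn2a was lower in both knockout than in both control libraries (log2 -1.44, SE 0.50, adjusted p = 0.158), and the value was -0.82 without knockout total replicate 1 and -2.44 without replicate 2.

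Cdkn2b stood at 134 and 119 CPM in control total, 120.1 and 123 in control granule, 59.8 and 155 in knockout total, and 259.9 and 238 in knockout granule libraries. Knockout granule libraries were above all others, while the other groups overlapped. The log2 difference between genotypes in granules was 1.04 (SE 0.41, adjusted p = 0.148) and that from total to granule in knockout cells 1.22 (SE 0.41, adjusted p = 0.0774), neither of them called. The ratio of Cdkn2a to Cdkn2b per kilobase was 10.1 and 11.4 in control total, 6.54 and 6.81 in control granule, and 3.90 to 4.98 in the 4 knockout libraries, with no overlap between the genotypes.

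**Figure D5:**
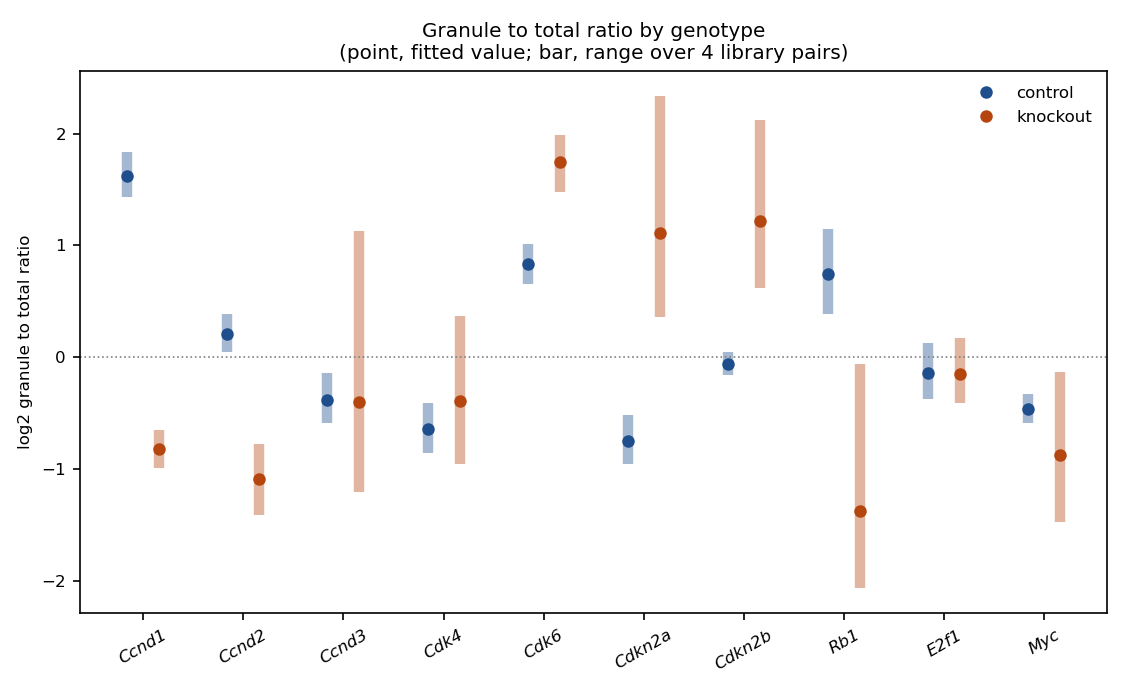
Log2 granule to total ratio (vertical axis) of each gene in control and knockout cells; points are fitted values and bars the range over 4 pairings of a granule with a total library. The Ccnd1 bars are farthest apart without wide spread (1.43 to 1.84 against -0.99 to -0.65), and the long knockout bars of Ccnd3, Cdkn2a, Cdkn2b and Rb1 show the split of the knockout total replicates.

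Rb1 (ENSMUSG00000022105, chromosome 14, 73183673 to 73325822), the pocket protein gene that holds E2F factors in check, had the lowest CPM of the 10 in every group but knockout total, where Cdk6 was lower on average. It stood at 5.71 and 8.47 CPM in control total, 12.6 and 11.1 in control granule, 23.2 and 5.96 in knockout total, and 5.71 and 5.53 in knockout granule libraries. Knockout total replicate 1 was the highest of all 8 and replicate 2 lay within the range of the control total libraries. From total to granule the knockout log2 change was -1.38 (SE 0.56, adjusted p = 0.128). It was -0.09 with knockout total replicate 1 omitted and -2.18, a called fall, with replicate 2 omitted. Exons of Lpar6 and Rcbtb2 on the opposite strand cover 14.9% of its exonic bases.

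E2f1 (ENSMUSG00000027490, chromosome 2, 154559407 to 154569892), an activating E2F factor, had fitted log2 changes of at most 0.15 in size. It stood at 118 and 89.9 CPM in control total, 91.0 and 98.0 in control granule, 75.9 and 113 in knockout total, and 85.6 and 84.8 in knockout granule libraries. The fitted log2 changes were -0.14 and -0.15 from total to granule in control and knockout cells, and -0.14 and -0.15 between genotypes in total RNA and in granules. With an SE of 0.28 each, intervals of 2 SE reached from -0.72 to 0.43, and adjusted p-values were 0.749 to 0.778.

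Myc (ENSMUSG00000022346, chromosome 15, 61985391 to 61990374, plus strand) was highest in knockout total cells. It stood at 376 and 347 CPM in control total, 276 and 249.8 in control granule, 972 and 486 in knockout total, and 444 and 350.1 in knockout granule libraries. Knockout libraries were above control libraries of the same fraction in every case, and granule libraries were below total libraries of the same genotype. None of these differences was called: between genotypes the log2 value was 1.01 in total RNA (SE 0.35, adjusted p = 0.158) and 0.60 in granules (SE 0.35, adjusted p = 0.302), and from total to granule it was -0.46 in control (SE 0.35, adjusted p = 0.406) and -0.88 in knockout cells (SE 0.35, adjusted p = 0.119). The value in total RNA was 0.43 without knockout total replicate 1 and 1.53 without replicate 2.

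Myc carried the densest GGACT matches of the 10 genes, 6 in a transcript of 2338 nt or 2.57 per kilobase, against the median of 1.06. They are shown as for Ccnd1.
Myc position 424, 5′ UTR: agccaggacaGGACTccccaggctc
Myc position 972, coding: tcatcatccaGGACTgtatgtggag
Myc position 1239, coding: ctccttcctcGGACTcgctgctgtc
Myc position 1527, coding: ccacaaggaaGGACTatccagctgc
Myc position 1827, coding: cctctgaaaaGGACTtattgaggaa
Myc position 2028, 3′ UTR: tggggctttgGGACTgtaagcttca
Of these, 3 lie in the last 1000 nt, as in 10.1% of 14422 protein-coding transcripts of at least that length. Cdk4 and Cdkn2a had 0 matches in their whole transcripts. The nonamer TTATTTATT, a longer AU-rich element, occurred 2 times in the 3′ UTR of E2f1 and 1 time in that of Cdk6, and in 7.70% of protein-coding genes.

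Transcript length and GC content each separated the members by sign in control cells. Cdk6 (11525 nt), Ccnd2 (6330 nt), Rb1 (4656 nt) and Ccnd1 (3740 nt) had positive log2 granule to total values, 0.83, 0.21, 0.74 and 1.62, and the 6 members with transcripts of 895 to 2755 nt had values from -0.75 to -0.06; of the 10 only Ccnd1 was called. GC content separated them in the same way, at 41.2% (Rb1) to 50.9% (Ccnd1) against 53.3% (Myc) to 60.2% (Cdkn2a). The signs of Cdkn2b (-0.06) and E2f1 (-0.14) were not settled. Their groups overlapped, and their values reached 0.038 and 0.078 with 1 library left out. Over these 10 genes length and GC content cannot be told apart. Neither relation was computed over all genes, so whether it is particular to the 10 was not tested. With the GC trend of each library removed, Rb1 turned to -0.06 and Ccnd3, Cdkn2b and E2f1 to 0.02, 0.30 and 0.26. The separation by sign was then gone, and the part of length or of GC content in it was not tested. In knockout cells Cdk6 was at 1.75 and the other 3 long members at -0.82 to -1.38.

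Genes of the same pathway were read from lists that are not separate from the members or from each other. The E2F targets include E2f1, the Myc targets include Cdk4, and Ccne1 and Ccne2 are both G1 to S partners and E2F targets. Of 27 partners in the step from G1 to S phase, 5 rose from total to granule in control cells and 0 fell (median log2 0.64, against -0.06 for all genes tested). Of all genes, 5.89% rose and 4.17% fell in control cells, 9.17% rose and 8.47% fell in knockout cells, and between genotypes in granules 5.79% were higher and 3.66% lower, and the counts of each list are to be read against these shares. Ccne2, cyclin E2, rose by 2.80 (SE 0.61, adjusted p = 0.0318) and E2f8, a repressive E2F factor, by 1.72 (SE 0.41, adjusted p = 0.0407). In knockout against control granules 5 fell and 0 rose (median -0.63, all genes 0.08). These included Tfdp1, the dimer partner of E2F factors, at -2.02 (SE 0.26, adjusted p = 0.00743), Ccna2, cyclin A2, at -1.92 (SE 0.42, adjusted p = 0.0328), and Skp2, the ubiquitin ligase subunit that targets p27, at -1.20 (SE 0.26, adjusted p = 0.0324). From total to granule in knockout cells 1 rose, Cdkn2d, and 2 fell, Tfdp1 and Rbl2 (median -0.28). That median was -0.57 without knockout total replicate 2, -0.21 without replicate 1, and -0.48 and -0.51 without knockout granule replicates 1 and 2. These calls were lost without either knockout granule library. With 1 library left out, the median ran from 0.64 to 0.75 in control cells and from -0.71 to -0.64 between genotypes in granules. Without any 1 granule library, control or knockout, the calls of both comparisons were lost. Without a control total library, those in control cells were lost and those between genotypes in granules were fewer. Without a knockout total library more genes were called, in the list and over all genes alike.

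Of 20 E2F targets, 3 rose from total to granule in control cells (median 0.40) and 6 fell in knockout cells (median -0.84), among them the replicative helicase genes Mcm4 at -1.49 (SE 0.34, adjusted p = 0.0251) and Mcm6 at -0.90 (SE 0.25, adjusted p = 0.0437). Rrm2, a subunit of ribonucleotide reductase, was at 205 and 205 CPM in control total, 460.3 and 439 in control granule, 236 and 273 in knockout total, and 103 and 97.2 in knockout granule libraries. Like Ccnd1 it was highest in control granules and lowest in knockout granules, and its difference of ratios was -2.48 (SE 0.33, adjusted p = 0.039). The call for this difference held in 2 of 8 fits without 1 library, those without a knockout total library (range -2.64 to -2.45, highest adjusted p 0.317), and was lost with library size alone and with the replicate block. Rrm2 was the only gene of the 5 lists called in that comparison. In knockout against control granules 3 of the 20 fell and 0 rose (median -0.62). With 1 library left out that median ran from -0.75 to -0.50, and the calls were lost without any 1 granule library. The 6 that fell in knockout cells became 0 without either knockout granule library and 1 without any 1 control library, and the 3 that rose in control cells became 0 without any 1 control or knockout granule library.

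Of 15 Myc targets, 1 fell in control cells from total to granule and 3 fell in knockout cells (medians -0.11 and -0.89). Odc1, ornithine decarboxylase of polyamine synthesis, fell by 2.06 in knockout cells (SE 0.27, adjusted p = 0.00435), and Srm, spermidine synthase, fell by 1.49 (SE 0.24, adjusted p = 0.00773). Both also fell between genotypes in granules, by 1.44 and 1.16, calls that held in 3 and 2 of 8 fits without 1 library (highest adjusted p 0.222 and 0.240). The fall in control cells was lost without any 1 control or knockout granule library. Without either knockout granule library, none of the Myc targets or Myc network genes was called in knockout cells. Of the 12 genes of the Myc network 11 were tested. In knockout cells 3 rose from total to granule, among them Mxd4 by 2.45 (SE 0.38, adjusted p = 0.00693) and Mxd3 by 2.48 (SE 0.51, adjusted p = 0.0182), both antagonists of Myc that compete for Max, and 1 fell, Mycl. Fbxw7, which targets Myc for degradation, rose in control (1.73) and knockout cells (1.66), and its call in control cells was lost without any 1 control or knockout granule library. The last list, of 13 genes, held regulators of the Ink4-Arf locus and genes tied to it in other ways, such as Mdm2. Of these 13, 2 rose in control cells, Mdm2 and Tbx3, and 1 fell, Tbx2. In knockout against control granules 1 of the 13 was called lower and 1 higher. Ets1 was lower, at -1.10 (SE 0.24, adjusted p = 0.0322), from -1.25 to -1.08 with 1 library left out, and its call depended on the library. Tbx2, a repressor of Cdkn2a, was higher by 2.98 (SE 0.41, adjusted p = 0.00882). Its levels were low, 2.62 to 4.42 CPM in knockout granule and 0.437 to 0.457 in control granule libraries, and the call was lost without either control granule library or knockout granule replicate 1 (highest adjusted p 0.142). Without any 1 control library, the calls of this list in control cells were lost. In total RNA no gene of the 5 lists was called between genotypes by edgeR. At an unadjusted p under 0.05 there were 6 of 27 G1 to S partners and 5 of 20 E2F targets. There were also 5 of 15 Myc targets, 6 of 11 Myc network genes and 5 of the 13 in the last list. The share over all genes was 24.8%, and the difference in share between the lists was not tested.

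The genes most like 3 of the members in pattern were ranked by the Pearson correlation of log2 CPM over the 8 libraries among 10216 other genes averaging 5 CPM or more. Among the 3 nearest to Ccnd1 were Ccnf (0.972) and Smarcd1 (0.972). Nearest to Cdkn2a were Acbd4 (0.993), Gpx1 (0.990) and Hps1 (0.990), and nearest to Myc were Slc16a10 (0.992), Rbpms (0.989) and B2m (0.987). Among the members, Cdkn2a and Cdkn2b correlated at 0.713, Cdkn2a and Rb1 at -0.839, and Ccnd1 and Ccnd2 at 0.593. All points share the same 8 libraries, and knockout total replicate 1 lies at an extreme for Cdkn2a and Myc.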

How the data were processed

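Poly(A) RNA of 8 libraries was analysed. The authors deposited raw counts per Ensembl gene, 1 column per library; STAR, DESeq2 and the GRCm38 (mm10) build are named in the submitters' processing notes, and the counting program, strand setting and annotation release are not given in the sources used here. Libraries were assigned to groups by their titles. Names, positions, lengths and transcripts came from GENCODE M21 (GRCm38), which matched 37693 of 39017 identifiers, and promoters from RefSeq (GRCm38.p6). Testing used edgeR 4.0.16 under R 4.3.3: robust quasi-likelihood F-tests after TMM scaling and an expression filter over the 4 groups, in 1 model of all 8 libraries with 4 residual degrees of freedom and 5 contrasts. P-values were adjusted by Benjamini-Hochberg over 18952 genes. CPM values are TMM-scaled and log2 CPM uses a prior count of 2. Standard errors came from the F statistic. P-values rest on the spread between replicates, estimated over all 4 groups of 2 and moderated toward a trend over genes. The procedure was tested on counts simulated with the same spread for all genes and libraries. That test does not cover the split between the knockout total replicates. Alternatives used DESeq2 1.42.0, limma 3.58.1 and other scalings, filters and subsets. A count of 3 in the smallest library is 0.0446 CPM. The 10 members, lists and rules for named genes (members; the 2 highest and 2 lowest called genes per list and contrast; the 3 nearest patterns for Ccnd1, Cdkn2a and Myc) were chosen with earlier results of these data known. Of the genes nearest in pattern to Ccnd1, 1 is not reported here.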

Additional observations from a re-analysis of the deposited data

Results flagged for a closer look

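Ccnd1 differed between genotypes in its granule to total ratio by a test of that difference, at -2.44 on the log2 scale (SE 0.36, adjusted p = 0.0437, edgeR). All 4 control pairings of a granule with a total library were positive and all 4 knockout pairings negative. These pairings reuse the same libraries, so they restate that the groups did not overlap. That held for 72.4% of all genes in control and 58.0% in knockout cells. Ccnd2 and Rb1 had the same signs as Ccnd1. The call held in 2 of 8 fits without 1 library, those without a knockout total library, and was lost with the replicate block, with library size alone and with the filter at a mean of 5 CPM.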

How the results depend on the processing

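Ccnd1 was called in control cells from total to granule, and between genotypes in granules, under median-of-ratios size factors, library size alone, both filters, the replicate block, GC trend removal, both of these together, the fit of only the groups compared, DESeq2 and voom with quality weights. Leaving out a library ended these calls as described above, and in those fits the lone library of a group is assumed to vary like the others. The difference of ratios for Ccnd1 was not called with library size alone (-2.26), a mean of at least 5 CPM (-2.24) or the replicate block (-2.44). The cause was not tested. In the order control cells, knockout cells, total RNA, granules and difference of ratios, the members called were 1, 2, 0, 1 and 1. With at least 1 count in all they were 1, 6, 3, 3 and 4, with DESeq2 2, 5, 2, 2 and 3, with the GC trend removed 1, 6, 0, 3 and 2, and with voom 5, 1, 0, 9 and 2. Only the groups compared gave 5, 0, 0 and 9. Library size alone and the 5 CPM filter each gave 0 for the difference of ratios. Without 1 library the ranges were 0 to 6, 0 to 8, 0 to 7, 0 to 6 and 0 to 9. The replicate numbers share only a number: deviations of same-numbered libraries correlated at -0.602 to 0.190 across the 6 pairs of groups. With the replicate block the members called were 1, 1, 0, 1 and 0 and all genes called 581, 1898, 0, 670 and 0, and with the block and the GC trend removed the members were 1, 6, 0, 3 and 1. A crossed replicate block, added after seeing the data, called 574, 2024 and 94 genes and 1, 1 and 0 members in the first 3 comparisons.

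All genes called were 1906, 3343, 78, 1791 and 98. They were 3829, 6194, 777, 4647 and 1984 with the GC trend removed, 3167, 5393, 361, 3897 and 933 with the block as well, 4001, 5161, 3407, 3404 and 3476 with at least 1 count in all, 4032, 5091, 2437, 3381 and 2724 with DESeq2, and 7448, 1079, 39, 10454 and 742 with voom. Only the groups compared gave 7354, 0, 0 and 10359. Library size alone gave 37 in total RNA, and the 5 CPM filter, which tests 10260 genes, gave 1224, 1744, 813 and 46 in the comparisons other than total RNA. Without 1 library the ranges were 0 to 8118, 243 to 9707, 0 to 9627, 0 to 7834 and 0 to 9349. GC removal turned the split between genotypes in granules from 1098 higher and 693 lower to 2044 and 2603, and that of the difference of ratios from 76 and 22 to 637 and 1347. Library size alone shifted the median of all genes by -0.13 in control cells and 0.19 in the difference of ratios, GC removal by -0.12 in knockout cells and -0.15 in the difference of ratios, and the 5 CPM filter by -0.17 there.

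The log2 values that changed sign were not called in the fit described above. With the GC trend removed, and then with the block as well, the control cell values were 0.021 and 0.015 for Ccnd3, 0.30 and 0.30 for Cdkn2b, -0.056 and -0.066 for Rb1, and 0.26 and 0.27 for E2f1. Those in total RNA were 0.16 and 0.15 for Cdkn2b and 0.52 and 0.51 for E2f1, and the difference of ratios for Cdk4 was -0.14 and -0.12. Cdkn2b in control cells was 0.0012 with at least 1 count in all, and E2f1 in granules 0.029 with the 5 CPM filter. The difference of ratios with library size alone, the 5 CPM filter and the replicate block was 0.10, 0.18 and 0.14 for Ccnd3 and 0.16, 0.18 and 0.0017 for E2f1, and with voom it was 0.31 for Ccnd3. Without 1 library, values ran from -0.0045 to 0.33 for Ccnd1 in total RNA, from -1.11 to 0.91 for Ccnd3, -0.86 to 0.14 for Cdk4 and -0.41 to 0.039 for E2f1 in knockout cells, from -0.10 to 0.038 for Cdkn2b and -0.28 to 0.078 for E2f1 in control cells, and from -0.97 to 0.29 for Cdkn2b, -0.25 to 1.82 for Rb1 and -0.35 to 0.12 for E2f1 in total RNA. The differences of ratios ran from -0.74 to 1.25 for Ccnd3, -0.22 to 0.74 for Cdk4, -0.28 to 0.13 for E2f1 and -1.003 to 0.16 for Myc. The cause was not tested.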
